A study of Homo sapiens with 16 samples.

Results

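The genes described here are YAP1, WWTR1 (which encodes TAZ) and TEAD1, together with 7 of their direct target genes: CYR61, CTGF, ANKRD1, AMOTL2, AXL, NUAK2 and LATS2. They were chosen by name as the YAP/TAZ-TEAD factors and their core targets, with CYR61 and CTGF under the older symbols of CCN1 and CCN2 that the deposited table uses. All 10 were found among the 58735 genes of the table, and all 10 were among the 17647 genes with enough counts to be tested. RNA was sequenced from 2 established human cell lines, MDA-MB-231 and SUM159 (titled SUM159PT). Both are models of triple-negative breast cancer, the form without oestrogen receptor, progesterone receptor or HER2 amplification. Both lines are labelled wild type. In each line 4 libraries came from cells given the solvent DMSO and 4 from cells given 8 uM YES1i for 48 h, which makes 16 libraries in 4 groups. YES1i is the compound CH6953755, made to block YES1, a tyrosine kinase of the Src family. MDA-MB-231 was grown in RPMI and SUM159 in Ham's F12 and at another seeding number, so a difference between the lines and one between their culture conditions cannot be told apart.

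YAP and TAZ are related co-activators without a DNA-binding domain of their own. They reach genes mainly through TEAD factors, which bind the motif GGAATG. When the Hippo kinases MST1/2 and LATS1/2 phosphorylate them, they are kept in the cytoplasm or degraded. Stiff matrix, cell spreading and Src family signalling favour their nuclear form. YAP was first isolated as a protein that binds YES, which gave it the name Yes-associated protein, and YAP and TAZ activity is well known in triple-negative breast cancer. Some of their targets feed back on them: LATS2 is a kinase that phosphorylates YAP, and AMOTL2 is an angiomotin that holds it in the cytoplasm. RNA levels report neither the phosphorylation nor the position of YAP and TAZ in the cell.

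The TEAD motif was looked for in the promoters, because 7 of the genes were chosen as direct targets. Whether the motif has a part in the changes described below was not tested. Of the 10 genes, 8 had promoter windows in RefSeq (GRCh38.p14), 11 windows in all; CYR61 and TEAD1 were not in that table. GGAATG, or its reverse complement CATTCC, occurred in the 250 bases before a start site in 6 of the 8 genes: YAP1, CTGF, ANKRD1, AMOTL2, AXL and NUAK2. Of the 6 targets with a window, 5 held it in these 250 bases. LATS2 did not, but its full window, which runs past the start site, had 1 match. Counted by window, as the shares over all promoters are, 6 of the 11 held it in the 250 bases. Among 35116 promoters of all genes, 11.9% held at least 1 match in the same length, 0.940% at least 2 and 0.0826% at least 3. CTGF had 3 matches, ANKRD1 and NUAK2 had 2 each, and YAP1, AMOTL2 and AXL had 1. The matches are shown with 12 bases on either side, 5′ to 3′ on the strand of the gene, with matches to the TEAD motif in capitals. For CTGF the stretch runs over all 3 matches.
YAP1, chr11:102110273-102110302 (+): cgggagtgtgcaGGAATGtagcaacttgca
CTGF, chr6:131951450-131951553 (-): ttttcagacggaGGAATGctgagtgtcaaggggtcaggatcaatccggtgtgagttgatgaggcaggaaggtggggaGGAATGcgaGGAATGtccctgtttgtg
ANKRD1, chr10:90921290-90921319 (-): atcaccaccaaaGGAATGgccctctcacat
ANKRD1, chr10:90921198-90921227 (-): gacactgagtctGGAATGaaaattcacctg
AMOTL2, chr3:134374499-134374528 (-): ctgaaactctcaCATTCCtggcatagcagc
AXL, chr19:41226531-41226560 (+): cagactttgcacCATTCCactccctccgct
NUAK2, chr1:205321925-205321954 (-): tcccctagtcccCATTCCtggtgggcgggt
NUAK2, chr1:205321746-205321775 (-): ttataacaacttGGAATGctgtgctttact
By the GENCODE v29 annotation of the same build, the YAP1 stretch lay in an exon of a lincRNA on the opposite strand, and the CTGF stretch in an intron of an antisense gene. The first stretches of ANKRD1 and NUAK2 lay in no annotated gene. The second stretches of ANKRD1 and NUAK2 and the one of AMOTL2 touched an untranslated exon of the gene itself, whose annotated starts differ between the sources, and the AXL stretch lay in an intron of AXL. RefSeq gives AMOTL2 and AXL 2 start sites each, and the match stood before 1 of them. The AP-1 motif TGANTCA is bound by AP-1 factors, which often share enhancers with TEADs. In the 250 bases before a start site it occurred in ANKRD1 alone among these genes, against 6.57% of all promoters. The CArG box of SRF occurred in those bases in none of these genes, against 1.16% of all promoters. All motifs were searched on both strands, and a match is a description of letters only.

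Values below are in CPM, that is, counts scaled to the library's TMM-corrected total over tested genes. Levels of different genes are set side by side only as RPKM, which also divides by the gene length given in the table. Changes are log2 fold changes (YES1i minus DMSO) with the standard error, from edgeR's quasi-likelihood test, and p-values are its Benjamini-Hochberg adjusted p over all 17647 genes. Changes with an adjusted p below 0.05 are called. Because the submitters speak of 4 technical replicates, the p-values cover only the spread between libraries, which may be technical. Total counts ran from 15876171 to 36261542 per library. The sum of 4 fibroblast markers moved with the treatment, from 24.2 to 27.8 CPM in DMSO to 14.8 to 17.9 CPM in YES1i in MDA-MB-231, and from 54.4 to 61.5 CPM to 77.9 to 84.3 CPM in SUM159. That of 4 endothelial markers went from 6.16 to 9.01 CPM to 14.8 to 18.4 CPM in MDA-MB-231 and from 10.0 to 11.9 CPM to 18.3 to 20.1 CPM in SUM159. That of 4 leukocyte markers went from 9.98 to 11.8 CPM to 12.1 to 14.5 CPM, and from 0.822 to 1.38 CPM to 2.55 to 2.80 CPM. Of these lists, PTPRC, CD3E, CDH5 and VWF reached at most 0.624, 0.172, 0.0912 and 0.730 CPM in any library. Others were well above 0: with DMSO and YES1i in turn, the leukocyte marker CSF1R stood at 8.59 and 11.5 CPM in MDA-MB-231, and the endothelial markers PECAM1 at 3.2 and 8.67 CPM there and KDR at 9.7 and 17.8 CPM in SUM159. Of the fibroblast markers in SUM159, PDGFRB stood at 32.3 and 47.5 CPM, PDGFRA at 17 and 14.5 CPM and DCN at 8.59 and 19 CPM. In MDA-MB-231 the sum was mostly PDGFRB, which fell from 25.5 to 13.2 CPM. LUM went the other way there, from 0.707 to 3.50 CPM. PDGFRA stood at 0.0272 and 0.0412 CPM in that line, and DCN had no count. Of the receptors that define the triple-negative class, ESR1 and PGR reached at most 0.734 and 0.114 CPM, while ERBB2, which encodes HER2, stood between 108 and 118 CPM in the group means. KRT8, a keratin of epithelial cells, was present in both lines (289 ± 12.1 CPM in SUM159 with DMSO, SD, n = 4), while CDH1, the epithelial cadherin, had no count in any SUM159 library. The 2 mitochondrial ribosomal RNAs took 0.644% of the counts of MDA-MB-231 under DMSO and 1.33% under YES1i, and for SUM159 the shares were 0.731% and 1.34% (exact permutation p = 0.0286 in each line, two-sided, the smallest that 4 libraries against 4 allow). The part of these shifts in the results below was not tested. In bulk RNA, fewer cells of a kind and less RNA per cell cannot be told apart.

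With YES1i in MDA-MB-231, 8 of the 10 genes fell and 2 rose. The falls covered YAP1, TEAD1 and 6 of the 7 targets, led by CTGF (2.06-fold), NUAK2 (1.93-fold) and AXL (1.91-fold). WWTR1 and ANKRD1 rose. Of all tested genes, 22.1% were called lower and 26.8% higher in this comparison. The median change of the 10 was -0.62, beside 0.03 for all tested genes. In SUM159, 5 of the 10 rose, 3 fell and 2 were not called, where 25.1% of all tested genes were called higher and 26.5% lower. The median there was 0.16, beside 0.02 for all genes. CTGF, AXL and NUAK2 fell in both lines, and ANKRD1 rose in both. YAP1, TEAD1, AMOTL2 and LATS2 fell in MDA-MB-231 and rose in SUM159. In SUM159, LATS2 rose by 0.18, a call that was lost without either of 2 libraries, as given with its values. The YAP1 fall in MDA-MB-231 was small (-0.13), and its call was also lost without certain single libraries, as given below.

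**Figure D1:**
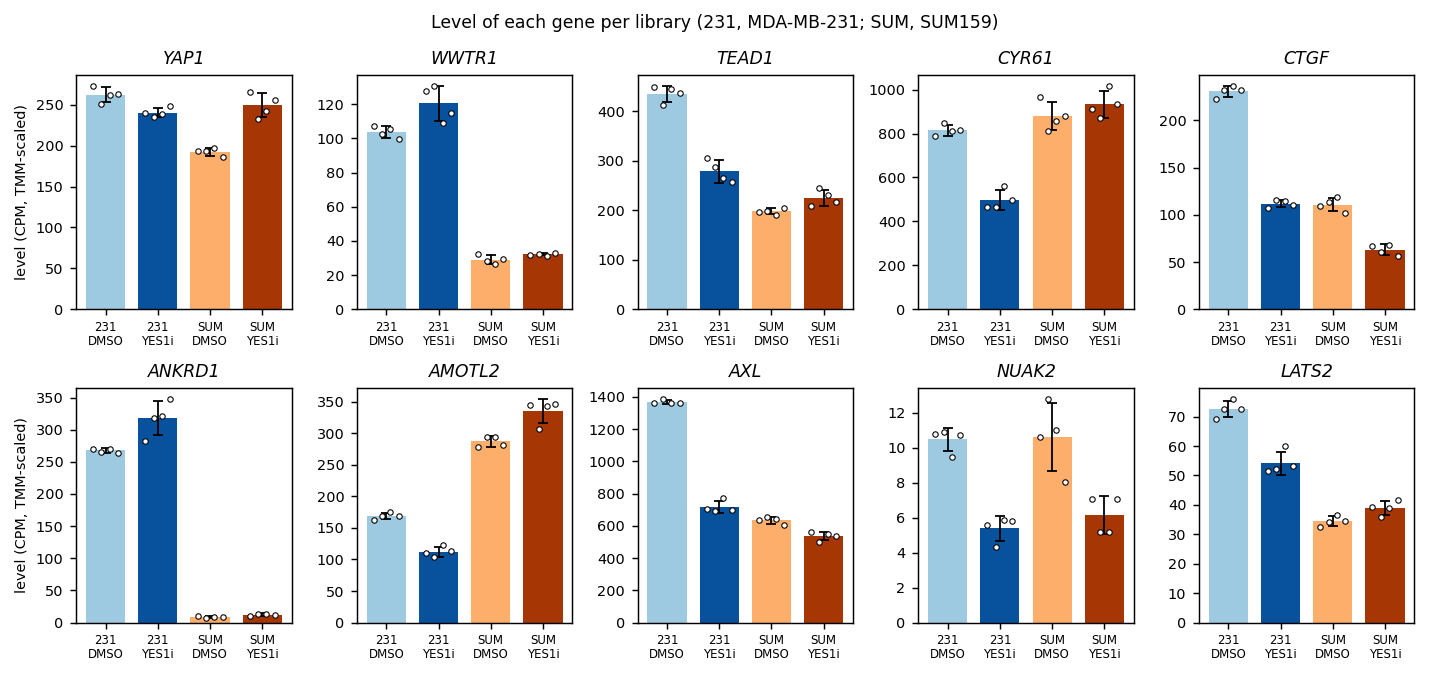
Level of each of the 10 genes in CPM (TMM-scaled, linear axis from 0, own scale per gene); points are libraries, bars the mean and error bars the SD of 4 libraries. CTGF, AXL and NUAK2 are lower with YES1i in both lines, while CYR61 falls from 815 to 497 CPM in MDA-MB-231 and stands at 880 and 934 CPM in SUM159.

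Among the factors, YAP1 (ENSG00000137693, chr11:102110461-102233423, hg38) fell slightly in MDA-MB-231 and rose in SUM159. The MDA-MB-231 libraries held 273, 251, 262 and 263 CPM with DMSO and 239, 235, 238 and 248 CPM with YES1i. The highest YES1i library was thus below the lowest DMSO library, by a small margin. The change was -0.13 ± 0.05 (SE, adjusted p = 0.027). The call was lost without DMSO replicate 1 (adjusted p = 0.0923), without YES1i replicate 2 (0.0731) and without YES1i replicate 3 (0.0558), with changes from -0.11 to -0.12. In SUM159 the DMSO libraries held 193, 194, 197 and 186 CPM and the YES1i libraries 266, 233, 243 and 256 CPM. Every YES1i library of SUM159 was above every DMSO library, and the rise was 0.37 ± 0.05 (SE, adjusted p = 1.44e-07), or 1.29-fold.

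WWTR1 (ENSG00000018408, chr3:149517235-149736714), the gene for TAZ, rose in MDA-MB-231. In MDA-MB-231 it stood at 107, 103, 106 and 99.4 CPM with DMSO and 128, 131, 109 and 115 CPM with YES1i. These groups did not overlap, and the rise was 0.21 ± 0.06 (SE, adjusted p = 0.00462), or 1.16-fold. In SUM159 the levels were 32.4, 28.3, 26.3 and 29.4 CPM with DMSO and 31.8, 32.3, 31.4 and 32.8 CPM with YES1i. The highest DMSO library reached into the YES1i range, and the change of 0.14 was not called (95% interval 0.002 to 0.27, adjusted p = 0.0974). The intervals, here and below, are not adjusted over the tested genes, so they can leave out 0 without a call. This change in SUM159 was called with RLE scaling (0.19, adjusted p = 0.0261), with upper quartile scaling (0.26, 0.00403), with DESeq2 (0.19, 0.0303) and without SUM159 DMSO replicate 1 (0.20, 0.0215).

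TEAD1 (ENSG00000187079, chr11:12674591-12944483), the TEAD gene with the highest level per length in every group, fell in MDA-MB-231 and rose in SUM159. In MDA-MB-231 the DMSO libraries held 448, 412, 444 and 438 CPM and the YES1i libraries 306, 289, 264 and 256 CPM. All YES1i libraries were far below all DMSO libraries, with a fall of 1.56-fold (-0.64 ± 0.06, SE, adjusted p = 7.71e-11). In SUM159 the levels were 196, 199, 191 and 205 CPM with DMSO and 208, 244, 231 and 217 CPM with YES1i. There the groups lay next to each other without overlap, and TEAD1 rose by 0.19 ± 0.06 (SE, adjusted p = 0.00691).

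Per length, the YAP1 level was above that of WWTR1 in every group. In RPKM, YAP1 stood in MDA-MB-231 at 41.7 ± 1.42 with DMSO and 38.2 ± 0.881 with YES1i, and in SUM159 at 30.6 ± 0.741 and 39.6 ± 2.31 (SD, n = 4). WWTR1 stood at 12.3 ± 0.418 and 14.3 ± 1.23 RPKM in MDA-MB-231 and at 3.46 ± 0.306 and 3.81 ± 0.0709 RPKM in SUM159. The ratio of YAP1 to WWTR1 per length was therefore higher in SUM159, 8.90 ± 0.894 with DMSO, than in MDA-MB-231, 3.38 ± 0.115. With YES1i it fell to 2.68 ± 0.264 in MDA-MB-231 (exact permutation p = 0.0286, two-sided; 0.0381 after Benjamini-Hochberg over the 4 ratio tests made). In SUM159 it was 10.4 ± 0.640 with YES1i, a difference that was not called (exact permutation p = 0.0571, adjusted 0.0571). All 4 MDA-MB-231 libraries with YES1i were thus below those with DMSO, while the SUM159 groups overlapped.

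The other TEAD factors did not all move with TEAD1. TEAD4 fell in both lines, from 19.5 ± 0.882 to 8.73 ± 0.762 CPM in MDA-MB-231 (SD, n = 4; -1.16 ± 0.10, SE, adjusted p = 4.82e-11) and from 34.7 ± 2.71 to 25.2 ± 3.24 CPM in SUM159 (-0.47 ± 0.09, adjusted p = 4.38e-05). TEAD2 fell in SUM159, from 37.2 ± 2.66 to 24.6 ± 0.655 CPM (-0.60 ± 0.07, adjusted p = 3.49e-08), and in MDA-MB-231 its change of 0.15 was not called (95% interval 0.01 to 0.30, adjusted p = 0.077). TEAD3 fell in SUM159, from 43.5 ± 3.09 to 35.6 ± 0.767 CPM (-0.29 ± 0.06, adjusted p = 0.000157), while its change in MDA-MB-231, -0.12, was not called (adjusted p = 0.0841). In SUM159 the other 3 TEAD genes thus fell while TEAD1 rose. Per length, TEAD1 stood first in each group, at 42.4 ± 1.59 RPKM in MDA-MB-231 with DMSO and 19.2 ± 0.578 RPKM in SUM159 with DMSO. In MDA-MB-231 it was followed by TEAD3 (23.1 ± 0.821 RPKM) with TEAD2 and TEAD4 lower (8.51 ± 0.340 and 8.57 ± 0.388). In SUM159 TEAD4 (15.3 ± 1.19), TEAD3 (14.3 ± 1.02) and TEAD2 (12.5 ± 0.893 RPKM) stood close together.

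VGLL proteins bind TEADs in place of YAP and TAZ. VGLL4, which is known to oppose YAP on TEADs, rose in both lines, from 22 ± 0.782 to 40.7 ± 4.25 CPM in MDA-MB-231 (SD, n = 4; 0.89 ± 0.07, SE, adjusted p = 3.19e-11) and from 18.2 ± 1.16 to 31.0 ± 0.410 CPM in SUM159 (0.76 ± 0.08, adjusted p = 1.49e-09). VGLL3 was largely a transcript of SUM159, with 146 ± 8.32 CPM there against 9.45 ± 0.740 CPM in MDA-MB-231 with DMSO. It rose with YES1i in SUM159, by 0.25 ± 0.06 (adjusted p = 0.0004). VGLL1 had no count in any library. Of the list of other TEAD and VGLL genes, 5 of 7 were tested; 1 rose and 1 fell in MDA-MB-231 (26.8% and 22.1% of all tested genes), and 2 rose and 3 fell in SUM159 (25.1% and 26.5% of all).

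**Figure D2:**
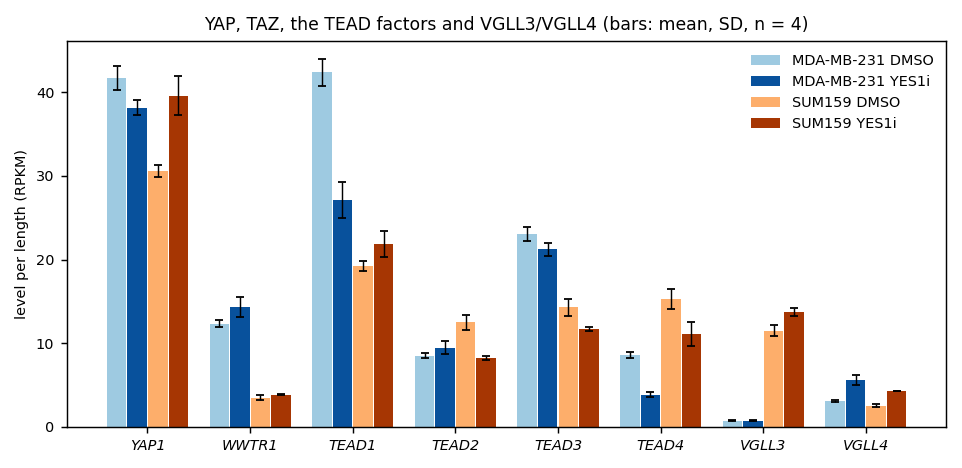
Level per length (RPKM, linear axis) of YAP1, WWTR1, the 4 TEAD genes, VGLL3 and VGLL4; bars are the mean and error bars the SD of 4 libraries per group. TEAD1 is the highest TEAD gene in each group, and VGLL3 stands at 11.5 and 13.7 RPKM in SUM159 but at 0.743 and 0.719 RPKM in MDA-MB-231.

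The secreted CCN proteins CYR61 and CTGF, which bind integrins and the matrix and are the most used readouts of YAP and TAZ, did not move alike. CTGF (ENSG00000118523, chr6:131948176-131951373) had 222, 233, 236 and 232 CPM in MDA-MB-231 with DMSO and 107, 115, 114 and 110 CPM with YES1i. It fell 2.06-fold there, with the groups far apart (-1.04 ± 0.06, SE, adjusted p = 3.5e-15). In SUM159 CTGF went from 109, 114, 119 and 102 CPM to 66.7, 60.2, 68.5 and 56.0 CPM. These groups were also apart, and the fall was 1.77-fold (-0.82 ± 0.06, SE, adjusted p = 1.9e-12). CTGF is the gene whose promoter carries the 3 TEAD matches printed above, and whether these bear on its fall was not tested.

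CYR61 (ENSG00000142871, chr1:85580761-85583962) changed in MDA-MB-231. Its libraries held 788, 846, 810 and 815 CPM with DMSO and 464, 465, 563 and 497 CPM with YES1i. All YES1i libraries were below all DMSO libraries, and the fall was 1.64-fold (-0.71 ± 0.06, SE, adjusted p = 6.84e-11). In SUM159 the values were 967, 813, 857 and 882 CPM with DMSO and 912, 870, 1018 and 934 CPM with YES1i. The SUM159 groups overlapped over most of their range, and the change of 0.09 was not called (95% interval -0.03 to 0.20, adjusted p = 0.252). With upper quartile scaling, which moves the median change of all genes in SUM159 to 0.14, it was called (0.20, adjusted p = 0.00401). Per length, CYR61 stood above CTGF in all groups, and the ratio of CTGF to CYR61 fell from 0.297 ± 0.00745 to 0.237 ± 0.0194 in MDA-MB-231 and from 0.133 ± 0.0154 to 0.0707 ± 0.00579 in SUM159 (SD, n = 4). Each fall had an exact permutation p of 0.0286, two-sided, and 0.0381 after Benjamini-Hochberg over the 4 ratio tests.

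ANKRD1 (ENSG00000148677, chr10:90912096-90921276), a nuclear ankyrin repeat protein known from stretched muscle, rose in both lines from very different levels. In MDA-MB-231 it stood at 271, 266, 270 and 264 CPM with DMSO and at 283, 318, 322 and 348 CPM with YES1i. The groups were apart, and the rise was 0.25 ± 0.07 (SE, adjusted p = 0.00423), or 1.19-fold. In SUM159 it stood at 10.2, 7.29, 8.03 and 8.93 CPM with DMSO and 10.1, 13.9, 13.4 and 12.5 CPM with YES1i. The lowest YES1i library was just under the highest DMSO library, and the rise was 0.51 ± 0.10 (SE, adjusted p = 0.000105), or 1.43-fold. ANKRD1 was the 1 target that rose in MDA-MB-231.

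AXL (ENSG00000167601, chr19:41219203-41261766), a receptor tyrosine kinase tied to invasion and drug resistance, fell in both lines. In MDA-MB-231 its level was 1361, 1386, 1360 and 1364 CPM with DMSO and 704, 694, 772 and 699 CPM with YES1i. The DMSO libraries lay within a narrow band and the YES1i libraries far below it, a fall of 1.91-fold (-0.93 ± 0.05, SE, adjusted p = 1.11e-15). In SUM159 AXL went from 636, 654, 643 and 603 CPM to 559, 499, 547 and 537 CPM. These groups were closer but did not overlap, and AXL fell 1.18-fold (-0.24 ± 0.05, SE, adjusted p = 0.000107). PROS1, a ligand of the AXL family, rose in both lines, from 13.4 ± 0.838 to 34.3 ± 1.19 CPM in MDA-MB-231 (1.36 ± 0.06, adjusted p = 9.32e-17) and from 85.9 ± 3.78 to 154 ± 5.56 CPM in SUM159 (0.84 ± 0.05, adjusted p = 9.53e-14). GAS6, the ligand of AXL itself, rose in MDA-MB-231, from 361 ± 22.8 to 418 ± 38.5 CPM (0.21 ± 0.08, adjusted p = 0.03), and was not called in SUM159 (-0.13, adjusted p = 0.192).

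NUAK2 (ENSG00000163545, chr1:205302059-205321791), an AMPK-related kinase that acts on the actomyosin cytoskeleton, was at a low level and fell in both lines. In MDA-MB-231 it had 10.8, 10.9, 9.46 and 10.7 CPM with DMSO and 5.56, 4.32, 5.85 and 5.80 CPM with YES1i. In SUM159 it had 10.6, 12.8, 11 and 8.05 CPM with DMSO and 7.08, 5.2, 5.2 and 7.05 CPM with YES1i. The groups did not overlap in either line. The falls were 1.93-fold in MDA-MB-231 (-0.95 ± 0.14, SE, adjusted p = 1.59e-06) and 1.73-fold in SUM159 (-0.79 ± 0.14, SE, adjusted p = 1.91e-05), with the widest errors of the 10 in both lines.

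AMOTL2 (ENSG00000114019, chr3:134355874-134375479), the angiomotin that binds YAP, fell in MDA-MB-231 from 163, 169, 175 and 169 CPM to 110, 104, 123 and 114 CPM. The fall was 1.5-fold, with the groups apart (-0.59 ± 0.05, SE, adjusted p = 1.78e-10). In SUM159 it rose from 278, 295, 295 and 282 CPM to 345, 308, 343 and 346 CPM. There too the groups were apart, YES1i above DMSO, and the rise was 1.17-fold (0.22 ± 0.05, SE, adjusted p = 0.000586). LATS2 (ENSG00000150457, chr13:20973032-21061547), the feedback kinase, fell in MDA-MB-231 from 69.2, 72.5, 76.0 and 72.6 CPM to 51.4, 52.0, 60.0 and 53.2 CPM. These groups were apart, and the fall was 1.34-fold (-0.42 ± 0.06, SE, adjusted p = 1.53e-06). In SUM159 LATS2 had 32.6, 34.1, 36.7 and 34.5 CPM with DMSO and 39.3, 36, 39.1 and 41.7 CPM with YES1i. The SUM159 groups overlapped, with YES1i replicate 2 below DMSO replicate 3, and the rise was 0.18 ± 0.06 (SE, adjusted p = 0.0212). Its call was lost without SUM159 DMSO replicate 1 (adjusted p = 0.0844), without SUM159 YES1i replicate 4 (0.0820) and with no filter on low counts (0.0523).

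**Figure D3:**
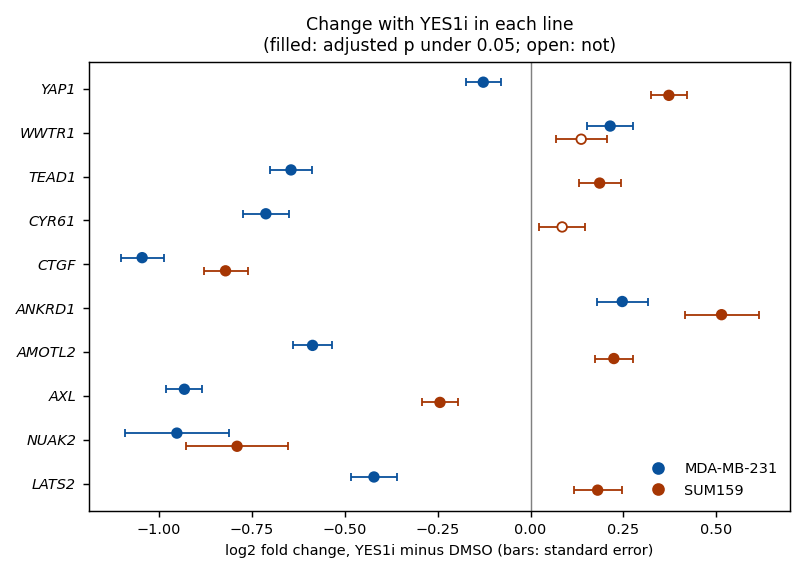
Change with YES1i (log2 fold change, YES1i minus DMSO) of the 10 genes in each line; bars are standard errors, filled points have an adjusted p under 0.05 and open points do not. YAP1, TEAD1, AMOTL2 and LATS2 lie below 0 in MDA-MB-231 and above 0 in SUM159, and CTGF, AXL and NUAK2 lie below 0 in both.

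Whether the lines differed in their change was tested directly, as the MDA-MB-231 change minus the SUM159 change. Of the 10 genes, 7 had a lower value in MDA-MB-231, none had a higher one by edgeR (0 also at an unadjusted p under 0.05 and 0 with DESeq2) and 3 were not called, where 12.1% of all tested genes were called lower and 19.1% higher. The median difference was -0.55, beside 0.04 over all genes. TEAD1 differed by -0.83 ± 0.08 (SE, adjusted p = 2.14e-09), AMOTL2 by -0.81 ± 0.07 (8.59e-10) and CYR61 by -0.80 ± 0.09 (2.37e-08). AXL, which fell in both lines, fell more in MDA-MB-231 (-0.69 ± 0.07, adjusted p = 4.5e-09). LATS2 differed by -0.60 ± 0.09 (adjusted p = 5.07e-06) and YAP1 by -0.50 ± 0.07 (9.27e-07). For CTGF the difference was small, -0.22 ± 0.08 (adjusted p = 0.0374). That call was lost on leaving out any 1 of 9 libraries: MDA-MB-231 DMSO replicates 2, 3 and 4, MDA-MB-231 YES1i replicates 1 and 4, SUM159 DMSO replicates 1 and 4, and SUM159 YES1i replicates 1 and 3 (adjusted p from 0.0504 to 0.105). The difference was not called for NUAK2 (-0.16, 95% interval -0.55 to 0.22, adjusted p = 0.584), WWTR1 (0.08, -0.10 to 0.26, 0.571) or ANKRD1 (-0.27, -0.50 to -0.03, 0.0993). ANKRD1 was called with RLE scaling (-0.32, adjusted p = 0.0481), upper quartile scaling (-0.38, 0.0167), DESeq2 (-0.32, 0.0361) and no filter on low counts (-0.29, 0.0323), and without MDA-MB-231 YES1i replicate 4 (0.0476), SUM159 DMSO replicate 1 (0.0163) or SUM159 YES1i replicate 1 (0.0175). This comparison uses the same libraries as the changes within each line.

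The lines also differed in the DMSO controls collected at 48 h. There, 7 of the 10 genes were higher in MDA-MB-231 than in SUM159, 1 was lower and 2 were not called, where 37.8% of all tested genes were higher and 38.7% lower. ANKRD1 differed most, 268 ± 3.40 against 8.61 ± 1.25 CPM (SD, n = 4), or 30.5-fold (4.93 ± 0.09, SE, adjusted p = 1.61e-25). WWTR1 was 3.55-fold higher (104 ± 3.52 against 29.1 ± 2.57 CPM, adjusted p = 1.53e-20), and TEAD1, AXL, LATS2 and CTGF were 2.20-, 2.16-, 2.11- and 2.08-fold higher. YAP1 was 1.36-fold higher (adjusted p = 1.26e-09). AMOTL2 was the gene higher in SUM159, 287 ± 8.59 against 169 ± 5.10 CPM (-0.77 ± 0.05, adjusted p = 7.43e-14). CYR61 was not called (-0.11, 95% interval -0.23 to 0.01, adjusted p = 0.0986), nor was NUAK2 (-0.02, -0.28 to 0.24, 0.899). Per length, CYR61 was the highest of the 10 in all 4 groups, at 332 ± 9.91 and 203 ± 18.9 RPKM in MDA-MB-231 and 358 ± 26.5 and 380 ± 25.3 RPKM in SUM159, with DMSO and YES1i in that order. AXL came next in MDA-MB-231 with DMSO (265 ± 2.42 RPKM) and in SUM159 with DMSO (123 ± 4.24 RPKM).

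With YES1i, 6 of the 10 were higher in MDA-MB-231 than in SUM159 and 2 lower, where 41% of all tested genes were higher and 38.5% lower. CYR61 was now lower in MDA-MB-231, 497 ± 46.4 against 934 ± 62.1 CPM (-0.91 ± 0.06, SE, adjusted p = 5.86e-14). AMOTL2 was 2.98-fold lower, 112 ± 7.94 against 336 ± 18.8 CPM (-1.58 ± 0.05, adjusted p = 2.97e-21). YAP1, higher in MDA-MB-231 with DMSO, was not called with YES1i, at 240 ± 5.55 against 249 ± 14.5 CPM (-0.05, 95% interval -0.15 to 0.04, adjusted p = 0.304). With upper quartile scaling it was called lower (-0.16, adjusted p = 0.00178). ANKRD1 remained the most different, 25.3-fold higher in MDA-MB-231 (adjusted p = 2.64e-25).

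Across the 4 groups the genes followed several orders. TEAD1, AXL and CTGF were highest in MDA-MB-231 with DMSO, then MDA-MB-231 with YES1i. For TEAD1 and AXL all neighbours in the order were apart. For CTGF, MDA-MB-231 with YES1i and SUM159 with DMSO overlapped. AMOTL2 had the order SUM159 with YES1i, SUM159 with DMSO, MDA-MB-231 with DMSO and MDA-MB-231 with YES1i, all apart. CYR61 had the same order, with the 3 highest groups overlapping their neighbours. LATS2 ran from MDA-MB-231 with DMSO through MDA-MB-231 with YES1i to SUM159, whose 2 groups overlapped. For YAP1 only the lowest group, SUM159 with DMSO, was apart from its neighbour. For NUAK2 the 2 DMSO groups overlapped each other, as did the 2 YES1i groups, and the treatments were apart. WWTR1 and ANKRD1 were highest in MDA-MB-231 with YES1i, and the 2 SUM159 groups overlapped.

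The genes with the most similar pattern over the 4 group means of log2 CPM, among 10876 protein-coding genes at 5 CPM or more, were found by the root mean square difference. For YAP1 these were APOL2 (0.0249), PLAT (0.0339) and DICER1 (0.0428). For CYR61 they were REEP4 (0.0108), FAM216A (0.0522) and TMEM56 (0.0542). For CTGF they were POC1A (0.0686), SMC2 (0.0741) and C9orf40 (0.0853). With 4 group means per gene and this many candidates, the likeness is a description only.

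The remaining 15 genes of a published set of 22 YAP/TAZ targets also divided by line. In MDA-MB-231, 10 fell and 3 rose, with a median change of -0.27; in SUM159, 6 fell and 6 rose, with a median of 0.00. Of all tested genes, 22.1% fell and 26.8% rose in MDA-MB-231, while for SUM159 these shares were 26.5% and 25.1%, and the medians over all genes were 0.03 and 0.02. With upper quartile scaling the SUM159 count was 3 lower and 6 higher. In the test of the difference between lines, 9 were lower and 2 higher in MDA-MB-231, against 12.1% and 19.1% of all. CRIM1, a membrane protein that binds BMPs, fell in MDA-MB-231 from 492 ± 9.14 to 260 ± 11.7 CPM (SD, n = 4; -0.92 ± 0.05, SE, adjusted p = 1.33e-14). F3, tissue factor, which starts coagulation, fell there from 465 ± 16.1 to 269 ± 13.7 CPM (-0.79 ± 0.07, adjusted p = 8.16e-11). RBMS3 and CCDC80 rose there, by 0.37 ± 0.07 and 0.29 ± 0.05. In SUM159 IGFBP3, an IGF-binding protein, rose from 3.55 ± 0.316 to 19.5 ± 1.43 CPM (2.43 ± 0.09, adjusted p = 7.07e-19), and TGFB2, a TGF-beta ligand, from 22.6 ± 2.68 to 35.5 ± 3.21 CPM (0.65 ± 0.07, adjusted p = 2.32e-08). CCDC80 fell in SUM159 from 522 ± 29.1 to 329 ± 16.8 CPM (-0.67 ± 0.05, adjusted p = 5.73e-12), the opposite of MDA-MB-231. NT5E, the ecto-enzyme CD73, fell by 0.50 there on the log2 scale, from 113 ± 14.5 to 79.7 ± 8.04 CPM (adjusted p = 2.67e-06).

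The closest relatives of the targets moved otherwise than the targets in several cases. NOV, the third CCN family member, rose in both lines while CTGF fell, from 4.48 ± 0.620 to 7.54 ± 0.594 CPM in MDA-MB-231 (SD, n = 4; 0.75 ± 0.13, SE, adjusted p = 2.7e-05) and from 7.69 ± 1.30 to 15.1 ± 1.24 CPM in SUM159 (0.96 ± 0.12, adjusted p = 8.63e-08). WISP2, also a CCN gene, was largely a SUM159 transcript and rose there from 91.5 ± 6.64 to 204 ± 28.2 CPM (1.16 ± 0.08, adjusted p = 2.37e-11). In MDA-MB-231 it rose too, at a low level, from 0.692 to 2.13 CPM (1.61 ± 0.25, adjusted p = 9.73e-06). WISP1 stood at 67.8 and 81.3 CPM in SUM159 (0.26 ± 0.09, adjusted p = 0.0124) and at 0.0257 and 0.120 CPM in MDA-MB-231, and WISP3 was at 0.357 CPM or less in every group mean. Of the receptors related to AXL, MERTK rose in MDA-MB-231 from 17.5 ± 1.05 to 22.2 ± 1.20 CPM (0.34 ± 0.10, adjusted p = 0.00799). It rose from a low level in SUM159, from 1.04 to 3.43 CPM (1.64 ± 0.18, adjusted p = 5.84e-09). TYRO3 fell in MDA-MB-231 from 33.0 ± 1.76 to 26.8 ± 0.805 CPM (-0.30 ± 0.09, adjusted p = 0.00792) and stood at 52.5 and 45.9 CPM in SUM159 (adjusted p = 0.0651). NUAK1, the relative of NUAK2, fell in MDA-MB-231 from 92.5 ± 5.29 to 71.5 ± 2.04 CPM (-0.37 ± 0.06, adjusted p = 1.29e-05) and stood at 14.3 and 14.9 CPM in SUM159. ANKRD2 and ANKRD23, relatives of ANKRD1, were at 1.25 CPM or less in every group mean. Of 8 tested relatives, 3 rose and 2 fell in MDA-MB-231, near the 26.8% and 22.1% of all tested genes. In SUM159, where the shares over all genes were 25.1% and 26.5%, 5 rose and none fell by edgeR (1 lower at an unadjusted p under 0.05, 0 with DESeq2). These 8 leave out AMOTL1 and AMOT, relatives of AMOTL2, and LATS1, the relative of LATS2, which were counted in other lists. AMOTL1 fell in MDA-MB-231 (-0.23 ± 0.05, SE, adjusted p = 0.000138) and in SUM159 (-0.39 ± 0.05, adjusted p = 4.97e-08). LATS1 was not called in either line (-0.03 and -0.06), nor was AMOT (0.76 and 0.28), which stood at 0.113 CPM or less in the MDA-MB-231 group means.

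The Hippo kinase cascade, which restrains YAP and TAZ, held 15 tested genes. In MDA-MB-231 5 rose and 4 fell (median 0.09), near the 26.8% and 22.1% of all tested genes, and in SUM159 2 rose and 6 fell (median -0.08; 25.1% and 26.5% of all). With upper quartile scaling the SUM159 count was 3 higher and 5 lower, with a median of 0.04. STK3, which encodes MST2, fell in MDA-MB-231 from 35.6 ± 3.45 to 26.6 ± 1.81 CPM (SD, n = 4; -0.42 ± 0.08, SE, adjusted p = 4.21e-05). SAV1, its scaffold, rose there from 79.3 ± 4.88 to 109 ± 6.04 CPM (0.46 ± 0.06, adjusted p = 1.72e-07). MAP4K4, a kinase that acts on LATS in parallel with MST, rose in MDA-MB-231 from 361 ± 10.1 to 456 ± 12.9 CPM (0.34 ± 0.04, adjusted p = 1.91e-07) and fell in SUM159 from 156 ± 4.61 to 122 ± 3.77 CPM (-0.36 ± 0.05, adjusted p = 1.2e-07). MAP4K2 fell in both lines, by 0.34 and by 0.77 on the log2 scale. TNIK and TAOK3 rose in SUM159, by 0.52 ± 0.08 and 0.27 ± 0.08.

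Of 16 genes for upstream Hippo proteins or YAP/TAZ-binding regulators, 9 fell and 1 rose in MDA-MB-231 (median -0.23), where 22.1% and 26.8% of all tested genes did. In SUM159 6 fell and 2 rose (median -0.01), where 26.5% and 25.1% of all did. The SUM159 median was 0.04 with RLE scaling, and with upper quartile scaling 5 rose and 4 fell, with a median of 0.11. WWC1, the scaffold KIBRA, fell in MDA-MB-231 from 128 ± 2.59 to 74.6 ± 4.63 CPM (SD, n = 4; -0.77 ± 0.06, SE, adjusted p = 7.6e-12), and RASSF1 there from 44.7 ± 0.963 to 27.7 ± 2.42 CPM (-0.69 ± 0.12, adjusted p = 4.21e-05). LIMD1, a LIM protein that binds LATS, was the 1 that rose there, by 0.28 ± 0.05. NF2, the upstream scaffold merlin, fell in SUM159 from 108 ± 3.6 to 63.3 ± 5.54 CPM (-0.77 ± 0.07, adjusted p = 9.13e-11), and the polarity protein SCRIB fell there by 0.71 on the log2 scale. RASSF5 and FAT4 rose there, by 0.44 ± 0.10 and 0.20 ± 0.06.

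SRF with its MRTF cofactors shares cytoskeletal inputs with YAP and TAZ. Of its 19 tested cytoskeletal genes and factors, 3 rose and 8 fell in MDA-MB-231 (median -0.14), where 26.8% and 22.1% of all tested genes did. In SUM159 11 rose and 3 fell (median 0.15), where 25.1% and 26.5% of all did. In the test of the difference, 11 had a lower value and 2 a higher one in MDA-MB-231, against 12.1% and 19.1% of all. TAGLN, an actin-binding protein of smooth muscle, rose in SUM159 from 9.70 ± 0.507 to 36 ± 5.84 CPM (SD, n = 4; 1.90 ± 0.10, SE, adjusted p = 1.85e-15), and MYL9, a myosin light chain, from 48.4 ± 0.779 to 124 ± 6.91 CPM (1.35 ± 0.05, adjusted p = 4.7e-18). MRTFA, which encodes the cofactor, fell there from 37.6 ± 2.46 to 25.0 ± 1.84 CPM (-0.59 ± 0.07, adjusted p = 4.57e-08), and ACTB from 6645 ± 217 to 5111 ± 219 CPM (-0.38 ± 0.05). In MDA-MB-231 FHL2 fell by 0.63 and CNN2 by 0.46 on the log2 scale, while TPM2 and CALD1 rose by 0.64 ± 0.08 and 0.44 ± 0.06.

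**Figure D4:**
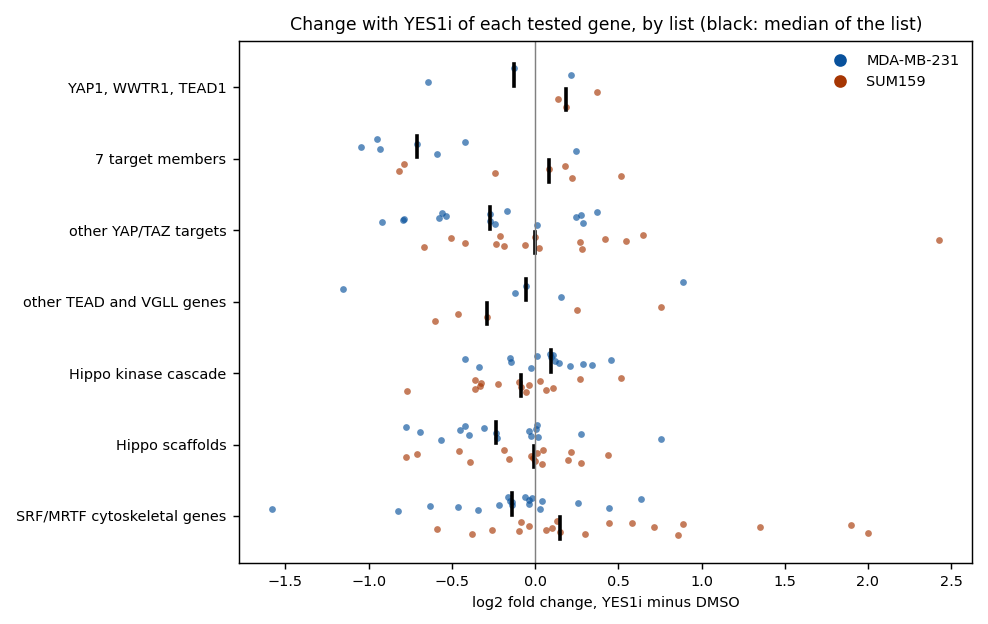
Change with YES1i (log2 fold change, YES1i minus DMSO) of each tested gene of the lists, one point per gene, in MDA-MB-231 and SUM159, with the median of each list as a black line. For the 7 targets the median lies at -0.71 in MDA-MB-231 and 0.09 in SUM159, and for the SRF/MRTF list at -0.14 and 0.15.

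YES1, the kinase that the compound is aimed at, stood at 94.3 ± 3.92 CPM with DMSO and 93.3 ± 5.32 CPM with YES1i in the MDA-MB-231 libraries (SD, n = 4; adjusted p = 0.86), and at 103 ± 3.61 and 88.9 ± 7.58 CPM in SUM159 (-0.21 ± 0.06, SE, adjusted p = 0.00392). An inhibitor of the enzyme's activity is not checked by the level of its RNA. Genes that overlap the 10 had at most 0.336% of the count of the gene they overlap, for WWTR1 and its antisense gene WWTR1-AS1.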

How the data were processed

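The authors deposited 1 table of raw read counts per gene for the 16 libraries, with gene names, coordinates and lengths. Per the submitters' processing notes, HISAT2 2.0.5, featureCounts 1.5.0-p3 and the build hg38 were used. Which annotation, strand setting and rule for multi-mapped reads were used is not given in the sources used here.

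The counts were analysed as deposited with edgeR 4.0.16 (R 4.3.3, limma 3.58.1). Genes were filtered with filterByExpr on the 4 groups, scaled by TMM, and fitted in 1 model with a mean per group by the robust quasi-likelihood F test. The Benjamini-Hochberg adjustment ran over the whole tested table, and calls were made below 0.05. Standard errors were derived from the F statistic, and 95% intervals use 1.96 standard errors, without adjustment over the tested genes. CPM use the same scaled library sizes, and log2 CPM for likeness a pseudocount of 0.5. The steps were tested on simulated counts. Depth was 15876171 to 36261542 counts per library. A count of 0 was taken to leave room for 3 counts, which is 0.0859 to 0.194 CPM depending on the library.

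The 10 genes and all lists were chosen with earlier results of these data known, so the counts of list members are descriptions. All 10 were named. From each other list the text names, per line, up to 2 called genes with the largest rise and up to 2 with the largest fall at a mean of 5 CPM or more. TEAD2, TEAD3, TEAD4 and the relatives of the targets are given always. The 3 most similar genes were named for YAP1, CYR61 and CTGF. Alternatives were scaling by RLE or by the upper quartile, DESeq2 1.42.0, no filter, a mean count of 10, a replicate block, an adjusted p under 0.01, leaving out each library and a fit per line. A planned description of protein motifs was not made. A planned leukocyte marker is not reported here.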

Additional observations from a re-analysis of the deposited data

Results flagged for a closer look

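For 7 of the 10 genes the change with YES1i differed between the lines by edgeR's test of that difference (MDA-MB-231 minus SUM159, log2). All 7 were lower in MDA-MB-231, where 12.1% of all tested genes were called lower and 19.1% higher. The CTGF call was lost on leaving out single libraries, as given above, and at an adjusted p under 0.01. The values were -0.83 for TEAD1, -0.81 for AMOTL2, -0.80 for CYR61, -0.69 for AXL, -0.60 for LATS2, -0.50 for YAP1 and -0.22 for CTGF.

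In 4 of the 40 sets of 4 libraries (10 genes in 4 groups), 1 library stood apart from the other 3 by a gap that, over the whole range, passed the 95% limit of Dixon's test. Chance gives about 1 in 20. AMOTL2 in SUM159 with YES1i had a low replicate 2 (308 CPM, gap 0.921 of the range). AXL in MDA-MB-231 had a high replicate 2 with DMSO (1386 CPM, 0.846) and a high replicate 3 with YES1i (772 CPM, 0.870). NUAK2 in MDA-MB-231 with DMSO had a low replicate 3 (9.46 CPM, 0.873). Without any 1 of these libraries, the calls of these 3 genes within the lines kept their direction and their side of the threshold.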

How the results depend on the processing

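Over the alternatives, none of the called changes of the 10 genes turned its direction. Of 240 values for MDA-MB-231 (10 genes under 24 alternatives), 236 kept their side of the threshold and 4 lost the call, all for YAP1. Of 240 for SUM159, 231 kept it, 4 lost it (LATS2) and 5 gained it (WWTR1 and CYR61). Of 230 for the difference between lines, 213 kept it, 10 lost it (CTGF) and 7 gained it (ANKRD1). Of 230 for each comparison of the lines, 229 kept it; the exceptions were CYR61 in DMSO and YAP1 in YES1i, both gained. With no filter on low counts, CYR61 was called lower in MDA-MB-231 than in SUM159 in DMSO (-0.13, with an adjusted p just under the threshold), so that 2 of the 10 were called lower there; the cause was not tested. At an adjusted p under 0.01, YAP1 in MDA-MB-231, LATS2 in SUM159 and the CTGF difference were not called. Upper quartile scaling moved the median change of all genes in SUM159 from 0.02 to 0.14.

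Of the 10 genes, 7 to 8 were called lower and 2 higher in MDA-MB-231 under the alternatives, 3 lower and 4 to 7 higher in SUM159, and 6 to 8 lower in the difference. Correlations of the deviations of same-numbered libraries in different groups ran from -0.195 to 0.0708 (median -0.0239), and 0 of 24 were over 0.1. Among 72 pairs with different numbers, 6 were over 0.1. The highest, at 0.228, was between SUM159 DMSO replicate 1 and SUM159 YES1i replicate 2. A block on the replicate number does not join such pairs. Each deviation is taken from a mean of only 4 libraries, so these values cannot settle whether any libraries shared an origin. With a replicate block, 8312 genes were called in MDA-MB-231 (8629 without it), 8748 in SUM159 (9105) and 5040 in the difference (5489). For the lines in DMSO and in YES1i the block gave 13359 and 13883 genes. Under the block the counts of the 10 genes were 2 higher and 8 lower in MDA-MB-231, 5 and 3 in SUM159, and 0 and 7 in the difference, as without it. NUAK2 had the largest standard error of the 10 in either line, 0.14.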
